A study of Mus musculus with 6 samples.

Results

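SOX13 is an HMG-box transcription factor of the SoxD group, and 9223 of its 13807 deposited binding peaks lay away from both histone marks mapped beside it. These far SOX13 peaks were chosen by position alone, as the peaks on chromosomes 1 to 19 with no H3K4me3 or H3K27me3 peak within 5 kb in either of the 2 cell populations studied. The 3 peaks of a pile-up on chromosome 17, from 39979751 to 39985949, were left out, as were the 313 peaks on the sex chromosomes. The far peaks made up 68.4% of the remaining 13491 SOX13 peaks (95% exact binomial interval 67.6 to 69.1%). Because the histone lists chose them, their lack of a mark nearby is a definition and not a finding.

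The cells were γδ thymocytes of C57BL/6 mice sorted as CD24+, a surface marker of immature thymocytes. All mice carried a TCRbeta knockout, which leaves no αβ T cells, and 1 Sox13 allele with an ECFP knock-in, so that cyan fluorescence reports Sox13 activity. SOX13 was profiled by chromatin immunoprecipitation and sequencing (ChIP-seq) in Sox13hi cells (high CFP), and H3K4me3 and H3K27me3 in Sox13hi and in Sox13lo cells (low or no CFP). Age, sex and the number of pooled mice are not given in the labels. Of 6 libraries listed, 5 have a peak list, with 1 library per group and no replicates, and the input library was not analysed here. No p-value is therefore given, and the intervals cover counting error only and treat peaks as independent.

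SOX proteins bind DNA in the minor groove and bend it, and SoxD members lack a transactivation domain of their own, so they act together with partner proteins. In γδ thymocytes, SOX13 is known for its part in the development of interleukin-17-producing cells and as a partner of TCF1, another HMG-box factor. H3K4me3 marks the promoters of active and poised genes, and H3K27me3 is laid down by Polycomb repressive complex 2 at silenced genes. Many lymphoid transcription factors also bind at distal enhancers, which as a rule carry little H3K4me3. Enhancer marks and chromatin accessibility were not analysed here. The positions are on mouse build mm9, and gene positions, gene names and DNA sequence of that build were not used, so sites are named by position and the identity of the cells was not checked against marker genes.

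Each peak has a score given by the authors, whose definition is not given in the sources used here. It served to rank peaks within the SOX13 list. The far peaks had a median score of 7.25, with an interquartile range of 6.0 to 9.0 and a range from 2.0 to 291.5. The other 4268 SOX13 peaks had a median of 8.75 and a range from 3.0 to 523.25. Among these, 1897 peaks flanked a histone peak within 5 kb without touching it, and their median of 7.75 was the nearest to that of the far peaks. The 544 peaks on H3K27me3 had a median of 9.0, and the 1827 peaks on H3K4me3 alone had a median of 11. Far peaks thus ranked lowest of the 4 classes at the median.

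The share of far peaks fell with the score. They made up 85.0% of the lowest decile of all SOX13 peaks by score (82.9 to 86.8%), 74.1% of the fifth decile and 36.4% of the highest (33.8 to 39.0%). Even so, 491 of the 1349 peaks in the highest decile of the list were far from both marks. Peaks on H3K4me3 alone made up 3.33% of the first decile and 46.9% of the last. The flanking share was 9.78% and 9.64% at these ends of the list, with a maximum of 18.6% in the sixth decile. Most of the fall in far peaks at the top of the list was thus matched by peaks on H3K4me3.

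**Figure D1:**
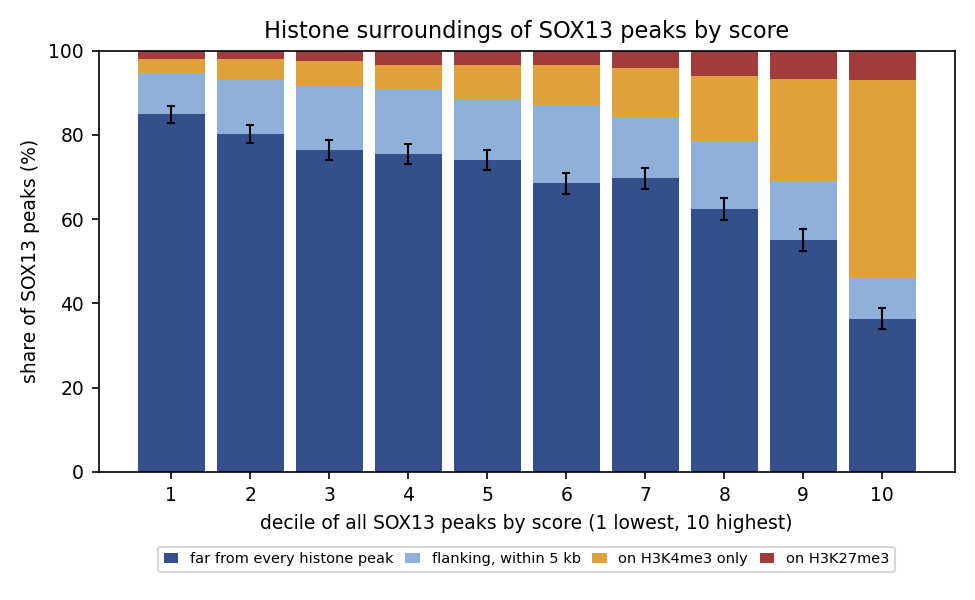
Share of SOX13 peaks in each class (percent, y axis) by decile of all 13491 SOX13 peaks by score (x axis). Colours stack the 4 classes, and bars on the lowest colour are 95% exact binomial intervals for far peaks, which fall from 85.0% in decile 1 to 36.4% in decile 10.

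Far peaks had a median width of 250 bp, against 300 bp for the other SOX13 peaks, on a list in which all widths are multiples of 50 bp. Of the far peaks, 4206 (45.6%) were 250 bp wide, 1101 (11.9%) were 200 bp or less, and 186 (2.02%) were over 500 bp, against 8.88% of the other SOX13 peaks. The narrowest was 100 bp and the widest 1250 bp. In all, far peaks covered 2.64 Mb, against 1.45 Mb for the other peaks.

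Width followed the score. When the far peaks were divided into deciles of their own, the lowest decile (scores 2.0 to 5.25) had a median width of 200 bp. The second to sixth deciles had 250 bp, the seventh and eighth 300 bp, the ninth 350 bp and the highest (scores 11.75 to 291.5) 400 bp. In the lowest decile 53.7% of peaks were 200 bp or less and none was over 400 bp. In the highest decile 1.41% were 200 bp or less and 42.5% were over 400 bp. Far and other peaks were also set side by side at like scores. Within the deciles of the whole list their median widths were the same from the second to the ninth. In the lowest decile they were 250 bp for far peaks and 200 bp for the others, with means of 227 and 223 bp, and in the highest 450 bp and 500 bp, with means of 453 and 518 bp.

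**Figure D2:**
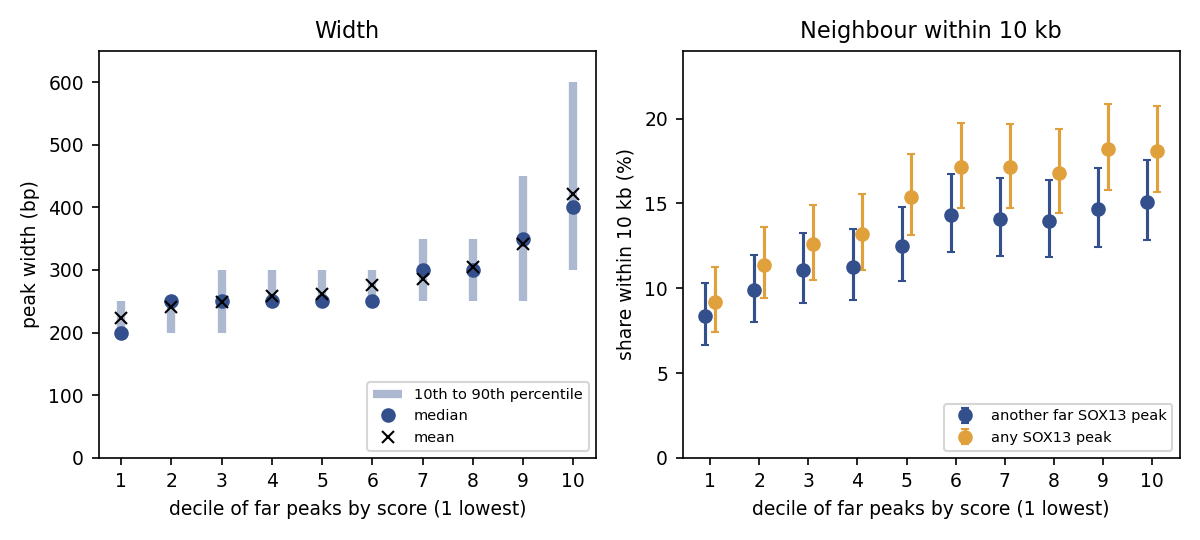
Left, width in bp of far SOX13 peaks by decile of their score, as 10th to 90th percentile (bars), median (points) and mean (crosses). Right, share (percent) with another far peak (blue) or any SOX13 peak (orange) within 10 kb, with 95% exact binomial intervals; the share with another far peak is 8.34% in decile 1 and 15.1% in decile 10.

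The far peaks were scattered along the chromosomes. The median gap from one far peak to the next was 143.9 kb, with an interquartile range of 52.1 to 326.1 kb. Their density ranged from 3.24 peaks per Mb on chromosome 14 to 4.72 per Mb on chromosome 17, counted from the first to the last position listed on each chromosome. That of the other SOX13 peaks ranged from 1.24 per Mb on chromosome 14 to 2.68 on chromosome 11. The share of far peaks was lowest on chromosome 11, with 62.8% (59.4 to 66.0%), and highest on chromosome 12, with 74.0% (70.2 to 77.4%).

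Few far peaks had a close neighbour of their kind. Joining far peaks with gaps of up to 10 kb placed 1154 of them (12.5%, 11.8 to 13.2%) in 545 clusters and left 8069 alone. Of the clusters, 495 were pairs, 42 held 3 peaks, 5 held 4, 2 held 5 and 1 held 8. Their median extent was 5.35 kb and the longest spanned 16.9 kb. The other SOX13 peaks, joined among themselves in the same way, were clustered in 20.2% (18.96 to 21.4%), in sequence where they were more densely placed. Counting a neighbour of any class, 14.9% of far peaks (14.2 to 15.7%) and 24.9% of the other peaks (23.6 to 26.2%) had a SOX13 peak within 10 kb. For 222 far peaks the only such neighbours were SOX13 peaks nearer to a histone mark.

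Among short gaps between consecutive far peaks, those under 1 kb were the most frequent. There were 101 gaps under 1 kb among 9204, then between 32 and 71 in each further 1 kb up to 10 kb, and 45.8 per kb from 10 to 20 kb. Among the other SOX13 peaks, which gave 4249 gaps, 125 were under 1 kb, 63 were from 1 to 2 kb and 18 were from 9 to 10 kb, with 16.1 per kb from 10 to 20 kb. Relative to the 10 to 20 kb range the excess of gaps under 1 kb was thus larger for the other peaks than for far peaks. By the rule, however, the other peaks all lie within 5 kb of a histone peak, which itself shapes their gaps. This contrast is therefore not read as a trait of either class.

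Neighbours were more frequent at higher scores. The clustered share was 8.34% in the lowest decile of far peaks (6.64 to 10.3%), 12.5% in the fifth and 15.1% in the highest (12.8 to 17.6%). The median gap to the nearest other far peak was 107.8 kb in the lowest decile, 66.0 kb in the fifth and 51.4 kb in the highest. Of the 495 pairs, 11 (2.22%) had both peaks in the highest decile, and of all 545 clusters 112 (20.6%) held at least 1 such peak and 14 held no other kind. The highest decile held 922 of the 9223 far peaks and 139 of the 1154 clustered ones. Counts for pairing regardless of score were not worked out, so these do not show that high scores pair with each other.

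The largest cluster lay on chromosome 4, from 3007201 to 3012899, with 8 peaks in 5.7 kb. Their scores were 21.25, 151.75, 21.5, 34.0, 67.5, 42.5, 32.5 and 34.0 in order along the chromosome, all in the highest decile, and 6 of the 8 were 250 bp wide or less. The second lay on chromosome 16, from 3234201 to 3241249, with 5 peaks scoring 75.75, 69.5, 91.25, 28.75 and 30.25, also all in the highest decile. The third, on chromosome 3, from 97369451 to 97383099, had 5 peaks with scores of 5.25, 15.5, 7.5, 7.25 and 20.25, so that it mixed deciles from the lowest to the highest. A cluster of 4 on chromosome 4, from 147249151 to 147261649, scored between 7.0 and 16, and one of 4 on chromosome 18 between 7.75 and 14.75. The first 2 clusters stood apart from the other 3 in that every peak scored at least 21.25.

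Distances to the histone marks were broad. To the nearest H3K4me3 peak of the Sox13hi list the median distance was 43.2 kb (95% interval of the median 41.6 to 44.6 kb), with an interquartile range of 18.6 to 114.5 kb. Of the far peaks, 10.5% lay between 5 and 10 kb from such a peak, 16.7% between 10 and 20 kb and 24.02% between 100 and 500 kb, and 73 (0.792%) lay at least 1 Mb away. To the Sox13hi H3K27me3 list the median was 77.2 kb. At the shortest distance to any histone peak, with a median of 28.1 kb, 63.1% of far peaks had H3K4me3 alone and 36.0% H3K27me3 alone. The histone lists differ in length, and a longer list has nearer peaks. H3K4me3 had 20444 peaks in Sox13hi and 18471 in Sox13lo, and H3K27me3 had 14842 and 7395. H3K4me3 thus made up most of all histone peaks listed. The split of 63.1% and 36.0% is therefore not read as a trait of far peaks.

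The distance to H3K4me3 changed with the score, mostly among the low scores. In the Sox13hi list it was 87.2 kb at the median in the lowest decile of far peaks (79.5 to 98.9 kb), 56.3 kb in the second, 44.4 kb in the fourth, 36.1 kb in the eighth and 35.2 kb in the highest (31.3 to 38.8 kb). The share over 100 kb from H3K4me3 was 46.3% in the lowest decile (43.0 to 49.5%) and 19.8% in the highest (17.3 to 22.6%). The lowest decile had the longer median on each of the 19 chromosomes. Lowest over highest decile, the ratio of medians was 2.48. It was 1.01 when only the top 50% of the SOX13 list by score was kept, so the medians showed no such gradient there. The share over 100 kb from H3K4me3 still fell somewhat among the upper deciles of far peaks. It was 24.3% in the sixth (21.6 to 27.2%) and 19.8% in the highest (17.3 to 22.6%). Among far peaks that were all 250 bp wide, the median distance was 76.0 kb in the lowest quartile by score and 36.3 kb in the highest, so the gradient was also seen at a single width.

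**Figure D3:**
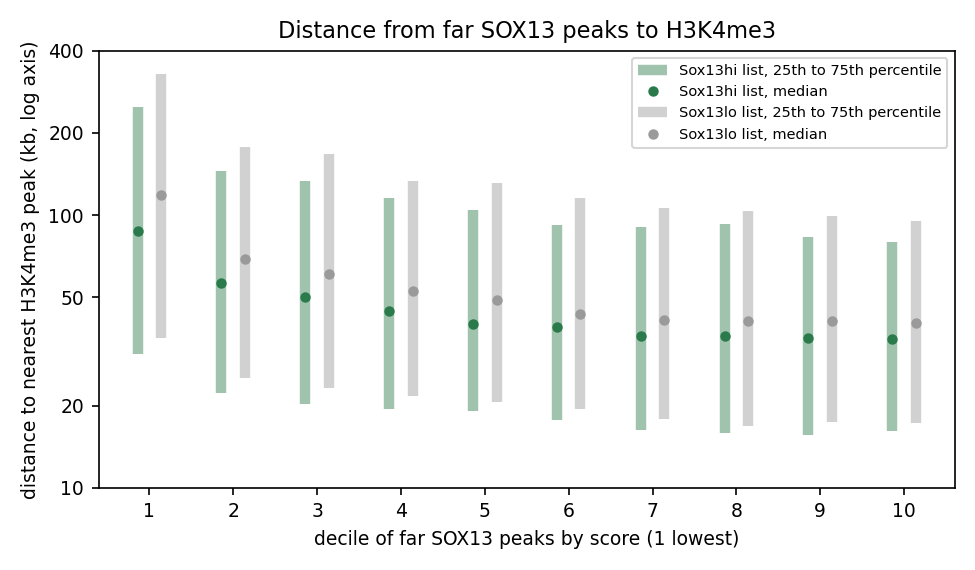
Distance in kb from far SOX13 peaks to the nearest H3K4me3 peak (log axis) by decile of SOX13 score, for the Sox13hi list (green, left of each pair) and the Sox13lo list (grey). Bars are the 25th to 75th percentile and points the median, which in Sox13hi is 87.2 kb in decile 1 and 35.2 kb in decile 10.

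Distances also reflect how much sequence lies at each distance, so far peaks were set against it. Sequence at least 5 kb from every histone peak made up 2108 Mb, or 87.4% of the same chromosome lengths, with assembly gaps included. It held 4.38 far peaks per Mb, against 14.0 other SOX13 peaks per Mb of the remaining sequence. The density of far peaks was 6.73 per Mb at 5 to 10 kb from the nearest histone peak, 6.32 at 10 to 20 kb, 5.02 at 20 to 50 kb, 3.77 at 50 to 100 kb, 2.36 at 100 to 500 kb and 0.870 beyond 500 kb. By this count far peaks thus thinned out with distance well past the 5 kb that defined them. Assembly gaps, which can hold no peak, count as sequence here, and their share at each distance was not measured.

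The lowest-scoring far peaks did not show this thinning. The lowest decile had 0.397 peaks per Mb at 5 to 10 kb (95% exact Poisson interval 0.318 to 0.491) and 0.461 at 100 to 500 kb (0.406 to 0.522). In between it had 0.449, 0.422 and 0.451 per Mb, so its density hardly varied up to 500 kb. The highest decile had 0.813 per Mb at 5 to 10 kb (0.697 to 0.942) and 0.140 at 100 to 500 kb (0.110 to 0.175). Near over distant density was 0.861 in the lowest decile, 2.01 in the second, 3.38 in the fifth and 5.81 in the highest. Against distance to Sox13hi H3K4me3 alone, the ratio was 1.07 for the first decile and 3.88 for the tenth. Beyond 500 kb from any histone peak there were 34 far peaks, of which 13 were in the lowest decile and 0 of the 922 peaks of the highest, which allows a density of up to 0.0944 per Mb there.

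**Figure D4:**
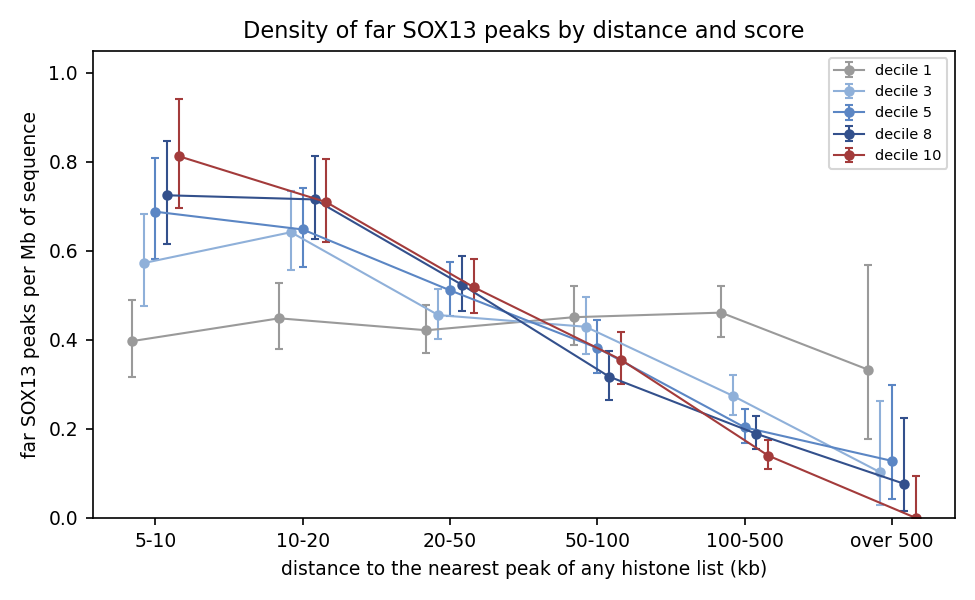
Far SOX13 peaks per Mb of sequence (y axis) by distance in kb to the nearest peak of any of the 4 histone lists (x axis), for 5 of the 10 score deciles, with 95% exact Poisson intervals. Decile 1 stays between 0.397 and 0.461 per Mb up to 500 kb, whereas decile 10 falls from 0.813 to 0.140 per Mb.

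The distance from far SOX13 peaks to H3K4me3 was then set side by side for the 2 populations. The median distance was 43.2 kb in the Sox13hi list of 20444 peaks and 50.2 kb in the Sox13lo list of 18471. The nearest H3K4me3 peak was closer in Sox13hi by over 1 kb for 2718 far peaks (29.5%), closer in Sox13lo by over 1 kb for 1560 (16.9%), and within 1 kb of the same distance for 4945 (53.6%). With both lists limited to 18471 peaks by score, the medians were 47.8 kb in Sox13hi and 50.2 kb in Sox13lo, and 22.2% (21.3 to 23.0%) and 19.6% (18.8 to 20.4%) of far peaks were nearer in the one or the other. The difference was thus smaller at equal length, and with 1 library per population a difference between populations and one between libraries cannot be told apart. An H3K4me3 peak lay within 20 kb in Sox13hi and not in Sox13lo for 565 far peaks, and in Sox13lo and not in Sox13hi for 301. At equal length the numbers were 427 and 312. The H3K27me3 distances were 77.2 kb in Sox13hi and 176.6 kb in Sox13lo as deposited, and 158.4 kb and 176.6 kb with both lists limited to 7395 peaks.

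The highest-scoring far peak lay on chromosome 11, from 108872751 to 108873399, with a score of 291.5 and a width of 650 bp, and had rank 5 among the 13491 SOX13 peaks. Its nearest H3K4me3 peaks were 89.1 kb away in Sox13hi and 88.6 kb away in Sox13lo. The next was on chromosome 16, from 57391401 to 57391949 (score 237, 550 bp wide), with H3K4me3 at 134.3 kb in Sox13hi and 134.4 kb in Sox13lo. The third was on chromosome 17, from 36368201 to 36368699 (228.75, 500 bp), where H3K27me3 of Sox13hi came within 6.35 kb and of Sox13lo within 48.6 kb. All 3 stood alone, with the nearest SOX13 peak of any class 41.25 kb away or more.

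Narrower peaks followed. The site on chromosome 11, from 3068701 to 3068949, scored 162.5 at a width of 250 bp, whereas far peaks of that width had a median score of 6.5. A site on chromosome 5, from 147072551 to 147072849, scored 142 at 300 bp, for which the median was 8.0. A pair on chromosome 18, 100 bp apart, scored 118.75 and 91.75, each peak 300 bp wide. Chromosome 11 held 2 more, from 3042451 to 3042649 (107.25, 200 bp wide) and from 3034001 to 3034249 (77.5, 250 bp wide), in a cluster of 3. Of the 20 highest-scoring far peaks, 8 were 300 bp wide or less, against 81.6% of all far peaks, and 5 were over 500 bp.

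The rest of the 20 scored from 63.0 to 151.75. Besides the 2 clusters at the start of chromosomes 4 and 16, which gave 5 of them, they were on chromosome 16, from 11144051 to 11144449 (89.5) and from 45352901 to 45353399 (71.0), on chromosome 2, from 33789401 to 33790149 (69.0), on chromosome 9, from 110183751 to 110184049 (66.5), on chromosome 3, from 5860701 to 5860999 (65.5), and on chromosome 13, from 44964751 to 44965099 (63.0). Chromosomes 11 and 16 together held 10 of the 20. The site on chromosome 3 was 283.8 kb from H3K4me3 in Sox13hi and 89.2 kb in Sox13lo, and that on chromosome 9 was 12.2 kb from it in Sox13hi and 23.2 kb in Sox13lo. The median distance of the 20 to H3K4me3 was 101.7 kb in Sox13hi and 88.9 kb in Sox13lo, against 35.2 kb and 40.4 kb for the highest decile as a whole. Without the 5 peaks of the 2 clusters at chromosome starts, the other 15 had medians of 42.95 kb in Sox13hi and 45.9 kb in Sox13lo, and 5 of the 20 lay within 20 kb of H3K4me3 in Sox13hi.

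High scores also gathered at the low-coordinate ends of a few chromosomes, which in the mouse are the centromere side. This was examined after the values were seen, so the contrast below describes these peaks and is not a test. Of the 59 far peaks within 500 kb of the first peak listed on their chromosome, 21 (35.6%, 23.6 to 49.1%) were in the highest decile and 27 (45.8%, 32.7 to 59.2%) were clustered. Among the other 9164 far peaks the shares were 9.83% (9.23 to 10.5%) and 12.3% (11.6 to 13.0%). These 59 held 8 of the 20 highest scores and 10 of the 27 scores of at least 40, all 10 on chromosomes 4, 11 and 16. All 8 such peaks on chromosome 4 and all 5 on chromosome 16 were in the highest decile, against 0 of 4 on chromosome 13 and 0 of 5 on chromosome 8. Those on chromosome 4 formed 1 cluster of 5.7 kb and those on chromosome 16 formed 1 of 7.05 kb. The intervals for the 59, which count such neighbours as independent, thus overstate the precision. The 40 other SOX13 peaks within the same distance had a median score of 15.4, against 9.25 for the 59. High scores there were thus not particular to far peaks. Signal at these sites without an antibody was not tested. Leaving the 59 out kept the median score at 7.25 and the median H3K4me3 distance in Sox13hi at 43.1 kb.

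**Figure D5:**
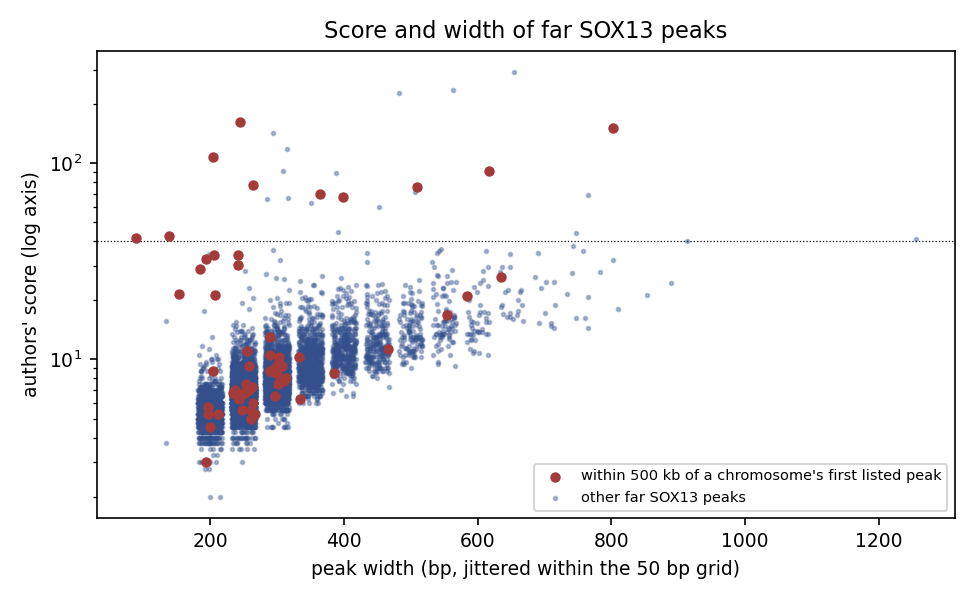
Authors' score (log axis) against width in bp for the 9223 far SOX13 peaks; red points are the 59 peaks within 500 kb of the first listed peak of their chromosome and the dotted line is a score of 40. Score and width go together for most peaks, and several red points of 250 bp or less score far above others of their width.

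The 5 far peaks farthest from any H3K4me3 peak were 4 on chromosome 1, at 26607251, 26672301, 26814651 and 26899801, between 1505 and 1797 kb from the Sox13hi list, and 1 on chromosome 6, from 45048301 to 45048649, at 1432 kb in Sox13hi and 1425 kb in Sox13lo. Their scores were 4.5, 5.0, 11 and 6.0 on chromosome 1 and 7.5 on chromosome 6. The 4 on chromosome 1 had H3K27me3 of Sox13hi at 43.8 to 132.7 kb and of Sox13lo at 2014 to 2306 kb. They lie in 1 region, and the Sox13lo list is the shorter, with 7395 peaks against 14842. They are thus 1 case, from which no difference between the populations is drawn. The 34 far peaks at least 500 kb from any histone peak had a median score of 6.0 and a maximum of 8.5 and lay on 14 chromosomes. Stretches free of histone peaks held up to 9 far peaks each, and 4560 of the 6443 stretches with a far peak held 1.

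As single examples, chosen by score and not by distance, the middle peak of the lowest decile was on chromosome 1, from 123203701 to 123203949, with a score of 5.0 and H3K4me3 at 19.7 kb in Sox13hi and 19.8 kb in Sox13lo. That of the fifth decile was on chromosome 14, from 112985851 to 112986149, with a score of 7.0 and H3K4me3 at 37.6 kb in Sox13hi and 905.0 kb in Sox13lo. That of the highest decile was on chromosome 13, from 103872751 to 103873149, with a score of 14.25 and H3K4me3 at 13.6 kb in Sox13hi and 250.6 kb in Sox13lo. These examples do not stand for their deciles. For 53.6% of all far peaks, the H3K4me3 distances in Sox13hi and Sox13lo were within 1 kb of each other. At the 5 kb limit, 15 far peaks had a gap of exactly 5 kb, among them those on chromosome 10, from 79023301 to 79023549 (score 6.75), chromosome 13, from 100125251 to 100125449 (5.25), and chromosome 14, from 79150051 to 79150249 (6.0). Just short of it, at 4.95 kb, were SOX13 peaks on chromosome 1, from 155027751 to 155027949 (5.25), chromosome 10, from 23647901 to 23648349 (15.75), and chromosome 11, from 79398601 to 79399249 (14.75). The 327 far peaks with a gap of 5 to 6 kb had a median score of 7.5, and the 347 SOX13 peaks with a gap of 4 to 5 kb had 7.75.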

How the data were processed

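The 5 deposited peak lists give a position and a score per peak, 1 list per ChIP library, none pooled. The score is the authors' own value. How it was defined is not stated in the labels or files, nor are the aligner, peak caller and control. Per the submitters' processing notes, positions are on mm9. Per the labels' protocols, 1000000 cells were used for SOX13 and 250000 for each histone ChIP. Read depth is unknown, and a deeper library or looser threshold lengthens a list.

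Deposited scores lay within 0.00147 of multiples of 0.25 and were rounded to them. Starts lay on a 50 bp grid and ends 1 bp short of it, so widths and gaps include the last base. Printed starts count from 1. A far peak has a gap of at least 5 kb to each of the 4 histone lists. The count of 9223 equalled that of bedtools 2.31.1. Deciles were taken by rank, ties by position. Distances are edge to edge, but densities used peak centres. Shares have exact (Clopper-Pearson) and medians order-statistic binomial intervals. Distance and cluster code was tested on simulated intervals. Python 3.11.15, NumPy 2.4.6, pandas 2.3.3, SciPy 1.17.1 and matplotlib 3.10.9 were used.

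The named sites follow a rule: the 20 highest scores, the 5 largest clusters, the 5 farthest from H3K4me3, 3 on each side of 5 kb and the middle peak of 3 deciles. The members, their rule and the tests were chosen with earlier results of these data known. Densities, chromosome starts and the score of 40 were added after seeing the data.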

Additional observations from a re-analysis of the deposited data

Results flagged for a closer look

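Outside the autosomes used above, chromosome X had 149 SOX13 peaks, of which 115 (77.2%, 95% exact interval 69.6 to 83.7%) had no histone peak within 5 kb. They had a median score of 6.0 and a maximum of 53.0. They belong to no comparison above.

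The pile-up left out on chromosome 17 consisted of 3 SOX13 peaks between 39979751 and 39985949, with scores of 6724, 805.25 and 792.75 and the nearest histone peak at 205.7 kb or more. Signal there without an antibody was not tested.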

How the results depend on the processing

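With 1 library per group there was no replicate to leave out. No paired analysis was possible because the groups have 1 library each. Depth is unknown, so weak sites missing from a list cannot be told apart from sites without signal.

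Keeping the pile-up, using all chromosomes, counting a gap of exactly 5 kb as near (9208 far peaks), measuring from centre to centre and leaving out peaks near chromosome starts moved no main value beyond its interval. Merging SOX13 peaks within 1 kb moved only the clustered share, to 10.7%.

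A limit of 20 kb left 5694 far peaks (42.2%), with a median score of 7.0, spacing of 251.4 kb, 10.8% clustered, and H3K4me3 at 74.7 kb in Sox13hi and 86.7 kb in Sox13lo. A limit of 1 kb gave 79.3%, 116.9 kb, 13.8%, and 36.2 and 42.1 kb. The Sox13hi histone lists alone gave 72.2%, 134.9 kb, 13.3% and, in Sox13lo, 46.0 kb. The top 50% of each histone list gave 82.3%, a score of 7.5, 114.2 kb, 15.0%, and 79.7 and 87.8 kb. The top 50% of the SOX13 list gave 3995 far peaks (58.5%), a score of 9.25, a width of 300 bp, 272.2 kb, 8.16%, and 35.6 and 40.8 kb. Joining peaks within 5 kb or 20 kb clustered 7.22% or 21.4%. H3K4me3 lists of equal length gave 47.8 kb in Sox13hi. Peaks 250 bp wide alone had 46.4 kb in Sox13hi and 54.6 kb in Sox13lo. The gap to the nearest SOX13 peak of any class was 46.6 kb and to the next one 99.3 kb.

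The ratio of lowest to highest decile in H3K4me3 distance lay between 2.45 and 3.06 in 12 alternatives and was 1.01 in the top 50% of the SOX13 list. The clustered share was higher in the highest than in the lowest decile in all 11 alternatives, by 1.65 to 2.20 times. Near over distant density was 0.645 and 0.805 in the lowest and 4.24 and 5.85 in the highest decile, for peaks 250 bp wide and with tied scores kept together. No result reversed. Where values moved, the cause was not tested.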

Other observations

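On chromosome Y, 21 of 164 SOX13 peaks (12.8%, 95% exact interval 8.10 to 18.9%) had no histone peak within 5 kb, and these had a median score of 1.5 and a maximum of 4.25.

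Within 500 kb of the first listed peak there were 59 far and 40 other SOX13 peaks, with median scores of 9.25 and 15.4.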
